A study of Mus musculus with 7 samples.

Results

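Collagen chains are the subunits of the main structural proteins of the extracellular matrix, and they were described here in microglia sorted from a mouse glioma. The chains were the protein-coding rows of the deposited expression table whose symbol has the form Col, a type number, the letter a and a chain number. The rule found 44 chains among the 24537 genes of the table, and 24 of the 44 reached at least 1 FPKM (fragments scaled to transcript length and to the depth of the library) in at least 2 of the 7 libraries. The family was taken up because high values of Col1a1, Col1a2 and Col3a1 had already been seen in the comparison of the libraries labelled anti-CTLA4 with control IgG. The chains' differences and calls in that comparison are therefore a description, with no p-value for a chain, and nothing is read from their number.

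Microglia, the resident macrophages of the brain, were sorted as CD45-intermediate, CX3CR1-positive cells from C57BL/6 mice bearing the implanted 005 glioma, at day 35 after implantation. All mice carried the tumour and all received an antibody treatment. The 7 libraries fell into 3 groups: 3 from mice with depletion of CD4 T cells plus anti-CTLA4, an antibody to a checkpoint receptor of T cells, 2 from mice given anti-CTLA4 alone, and 2 from mice given control IgG. Neither the age nor the sex of the mice, nor whether each library was 1 mouse, was stated in the labels. The 2 columns named for anti-CTLA4 bear sample sheet numbers 29 and 30, which the table's own header assigns to libraries named for an interferon-gamma receptor knockout, whereas the sample descriptions give 10 and 11. Their group was taken from the column name, so they are termed the libraries labelled anti-CTLA4, and each direction involving them rests on that name. Ifngr1, which encodes the ligand-binding chain of that receptor, had 204 and 271 FPKM in the libraries labelled anti-CTLA4, and 107 to 143 FPKM in the other libraries.

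A collagen molecule is a triple helix of alpha chains, built from the same chain or from partner chains encoded by different genes. Fibrillar collagens such as types I, III and V form the fibres of connective tissue, collagen IV forms the sheet of basement membranes, collagen VI forms beaded filaments, and fibril-associated collagens decorate fibre surfaces. In the brain, fibrillar collagens are largely confined to the meninges and the walls of larger vessels, collagen IV surrounds all vessels, and microglia are not known as a main source of either. RNA of other cells in a sorted pool adds to each value in these bulk samples, and fewer cells of a type cannot be told apart from less RNA per cell.

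The sorted libraries carried the defining transcripts of microglia throughout: the 14 homeostatic microglia genes listed summed to 3677, 6162 and 5735 FPKM in the CD4-depletion libraries, to 8018 and 12279 FPKM in the libraries labelled anti-CTLA4, and to 5555 and 4402 FPKM in the IgG libraries. Markers of other cells were also present and are given beside the chains below. Low values of the table stepped in whole reads and implied 84146000 to 107602000 reads per library, with 49880716 to 61852136 of them in genes. Replicate 1 of the CD4-depletion group stood apart: it held a monocyte marker sum of 1105 FPKM against 18.3 to 86.5 FPKM in the 6 others. The Y-linked genes Eif2s3y, Ddx3y and Uty were higher in every CD4-depletion library than in any other (Eif2s3y 4.34 to 6.86 FPKM against 0.335 to 1.06 FPKM), while Kdm5d overlapped, at 0.663 to 1.88 FPKM against 0 to 0.746 FPKM, and the sex makeup of the pools cannot be told apart from the depletion.

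Summed over the 44 chains, collagen transcripts reached 478, 145 and 147 FPKM in the CD4-depletion libraries, 286 and 163 FPKM in the libraries labelled anti-CTLA4, and 111 and 80.1 FPKM in the IgG libraries. The first CD4-depletion library was the highest and the IgG libraries were the lowest. A few chains made up most of this. By mean over the 7 libraries the leading chains were Col3a1, Col4a1, Col6a1, Col18a1, Col1a1, Col6a2, Col1a2, Col4a2, Col9a3, Col26a1, Col4a5 and Col5a1, in that order.

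**Figure D1:**
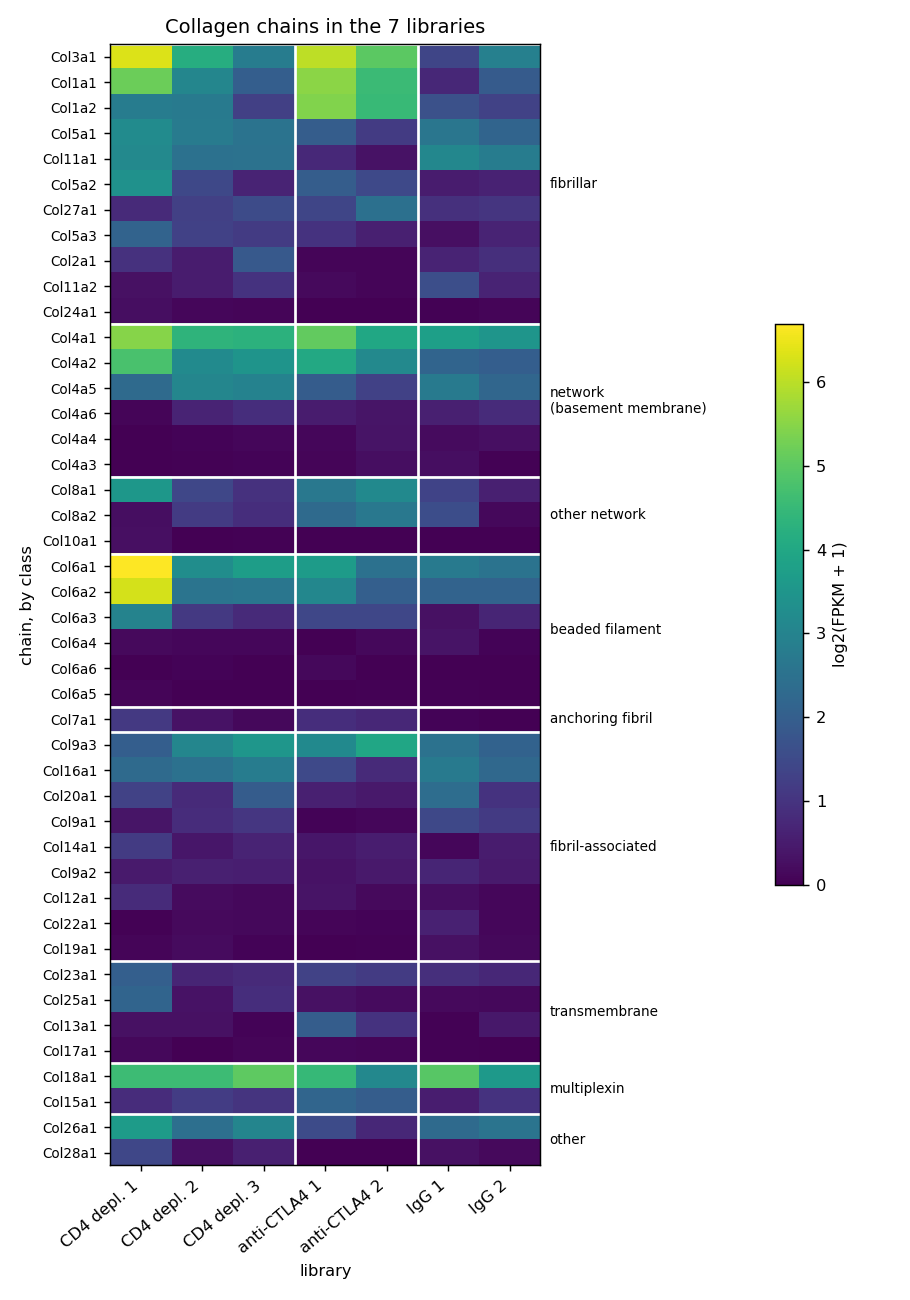
Level of each of the 44 chains in each of the 7 libraries, as log2(FPKM + 1), with chains in rows grouped by collagen class and libraries in columns grouped as CD4 depletion plus anti-CTLA4, labelled anti-CTLA4 and IgG. The 12 chains of highest mean carry most of the signal, and 20 chains stay under 1 FPKM in all but at most 1 library.

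The makeup of the collagen pool differed between libraries in a way that does not depend on how libraries are scaled against each other. The 11 fibrillar chains took 31.9%, 31.8% and 18.6% of the summed collagen FPKM in the CD4-depletion libraries, 56.1% and 51.6% in the libraries labelled anti-CTLA4, and 19.3% and 29.8% in the IgG libraries. The libraries labelled anti-CTLA4 lay above all 5 others, with a mean of 53.8% ± 3.23 (SD, n = 2) against 24.6% ± 7.46 (SD, n = 2) in IgG. Their fibrillar sums were 160 and 84.1 FPKM. Of these, Col3a1 held 63.6 and 31.3 FPKM, Col1a1 45.4 and 22.7 FPKM, and Col1a2 42.1 and 21.5 FPKM. High values of those 3 chains prompted the choice of the family, so this gap in the share is a description and nothing is read from it. Other fibrillar chains differed from IgG in both directions, as given below. Two-sided exact permutation tests cannot go below p = 0.333 for 2 libraries against 2, or below p = 0.2 for 3 against 2, so no share or ratio was tested. The 6 collagen IV chains took 15.4%, 24.5% and 24.6% in the CD4-depletion libraries, 18.1% and 15.3% in the libraries labelled anti-CTLA4, and 20.4% and 22.4% in the IgG libraries, and these ranges were much closer. The collagen VI chains took 38.6% in the first CD4-depletion library and 5.80% to 12.4% in the 6 others.

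**Figure D2:**
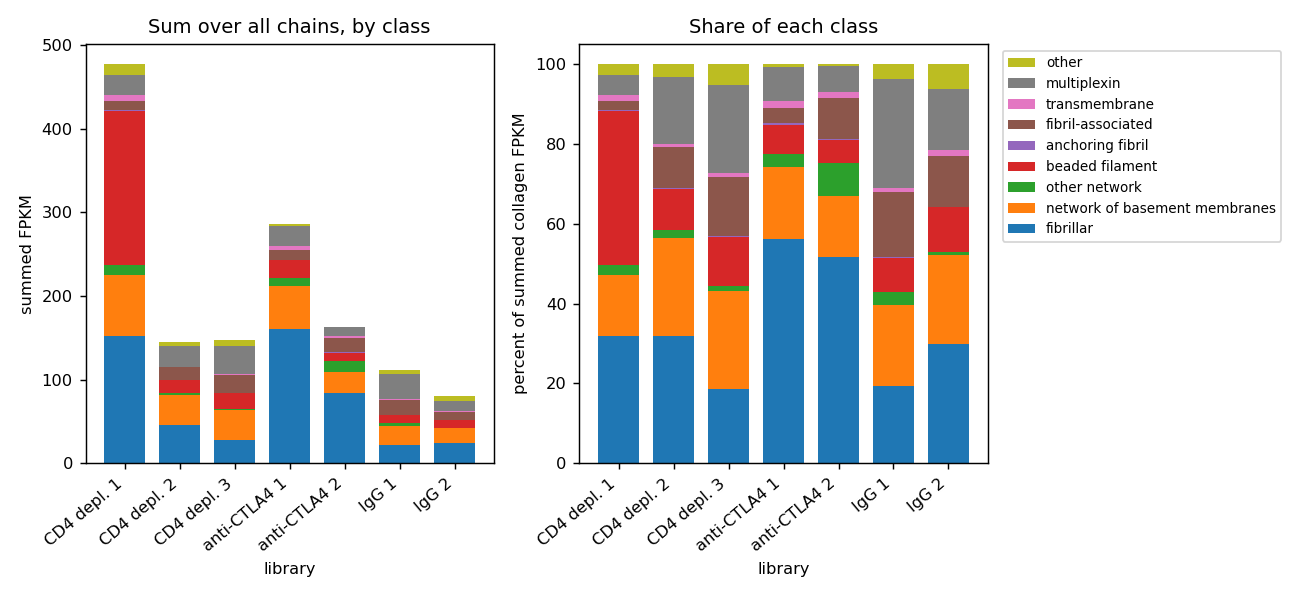
Summed FPKM of the 44 chains by collagen class (left) and the share of each class in percent (right), as a stacked bar per library. Fibrillar chains, mostly Col1a1, Col1a2 and Col3a1, take 56.1% and 51.6% of the libraries labelled anti-CTLA4. Collagen VI takes 38.6% of the first CD4-depletion library.

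The promoter windows of 5 chains are printed because these chains stand for the patterns that follow: Col1a2 and Col3a1 for the chains higher in the libraries labelled anti-CTLA4, Col11a1 and Col16a1 for those lower there, and Col4a1 for the region it shares with Col4a2. Each runs 5′ to 3′ on the gene's own strand, from 250 bases before to 50 bases after the annotated start, and is a RefSeq sequence of build GRCm38.p6, the assembly behind mm10. Capitals mark CCAAT or its reverse complement ATTGG, the box that the factor NF-Y binds. The windows lie at chr6:4505368-4505667 on the plus strand for Col1a2, chr1:45311288-45311587 on the plus strand for Col3a1, chr3:114030290-114030589 on the plus strand for Col11a1, chr4:130047590-130047889 on the plus strand for Col16a1, and chr8:11312777-11313076 on the minus strand for Col4a1.
Col1a2: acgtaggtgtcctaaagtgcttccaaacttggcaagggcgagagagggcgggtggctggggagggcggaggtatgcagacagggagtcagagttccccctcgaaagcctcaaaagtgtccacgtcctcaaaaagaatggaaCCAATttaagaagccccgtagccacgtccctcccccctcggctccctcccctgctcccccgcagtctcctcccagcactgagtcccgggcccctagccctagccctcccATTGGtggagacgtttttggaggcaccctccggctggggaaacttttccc
Col3a1: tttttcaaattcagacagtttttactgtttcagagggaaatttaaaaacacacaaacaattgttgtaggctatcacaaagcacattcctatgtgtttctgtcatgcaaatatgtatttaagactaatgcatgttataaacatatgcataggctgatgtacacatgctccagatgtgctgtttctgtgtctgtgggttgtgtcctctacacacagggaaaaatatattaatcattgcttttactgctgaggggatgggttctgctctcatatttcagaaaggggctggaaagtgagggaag
Col11a1: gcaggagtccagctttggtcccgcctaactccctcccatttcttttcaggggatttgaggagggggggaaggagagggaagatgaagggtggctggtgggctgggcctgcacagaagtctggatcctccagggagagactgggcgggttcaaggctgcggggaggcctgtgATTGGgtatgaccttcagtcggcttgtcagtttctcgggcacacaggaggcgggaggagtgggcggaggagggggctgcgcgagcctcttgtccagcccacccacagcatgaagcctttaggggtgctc
Col16a1: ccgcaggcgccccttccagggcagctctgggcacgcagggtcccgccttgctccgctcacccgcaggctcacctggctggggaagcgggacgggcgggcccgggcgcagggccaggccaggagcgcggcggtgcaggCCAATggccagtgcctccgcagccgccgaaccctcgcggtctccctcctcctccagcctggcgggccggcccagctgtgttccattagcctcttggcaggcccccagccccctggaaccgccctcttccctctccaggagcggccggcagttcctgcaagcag
Col4a1: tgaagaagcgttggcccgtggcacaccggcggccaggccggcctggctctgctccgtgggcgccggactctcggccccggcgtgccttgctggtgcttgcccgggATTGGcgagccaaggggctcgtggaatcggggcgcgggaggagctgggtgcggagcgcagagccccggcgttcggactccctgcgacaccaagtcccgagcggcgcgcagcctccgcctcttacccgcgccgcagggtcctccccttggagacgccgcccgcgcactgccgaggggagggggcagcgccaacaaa

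Windows were found for 35 of the 44 chains, and not for Col1a1, Col2a1, Col4a3, Col5a2, Col9a3, Col12a1, Col14a1, Col22a1 and Col26a1. On both strands, CCAAT stood in 13 of the 35 windows and in 37.41% of 32851 promoter windows of the same length. TATAAA, the core of a TATA box, stood in 5 of the 35 and in 13.62% of all windows. GGGCGG, a core bound by Sp1, stood in 22 of the 35 and in 35.66% of all windows. In the printed windows, Col1a2 has a CCAAT 109 bases before its start and an ATTGG at the start itself, Col11a1 an ATTGG 79 bases before, Col16a1 a CCAAT 113 bases before and Col4a1 an ATTGG 145 bases before, each counted to the motif's first letter. Col3a1 has none of these letters and has a TATAAA 117 bases before its start. Of the chains called higher below in the libraries labelled anti-CTLA4, Col1a2 held a CCAAT or ATTGG, while Col3a1, Col8a2 and Col15a1 did not. Of those called lower, Col11a1, Col16a1 and Col9a1 held it. Col1a1 and Col26a1 had no window, and the part of the motif in these levels was not tested.

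Type I collagen, the main collagen of connective tissue, is assembled from the products of Col1a1 and Col1a2, and type III, its usual partner in vessel walls and meninges, from the product of Col3a1. Col1a2 (chr6:4505618-4541543, mm10, plus strand) had 6.03, 5.65 and 1.41 FPKM in the CD4-depletion libraries, 42.1 and 21.5 FPKM in the libraries labelled anti-CTLA4, and 2.15 and 1.497 FPKM in the IgG libraries. Both libraries labelled anti-CTLA4 stood above all others, and the CD4-depletion and IgG libraries overlapped. Col1a1 (chr11:94936224-94953042, plus strand) had 35.3, 7.32 and 3.02 FPKM in the CD4-depletion libraries, 45.4 and 22.7 FPKM in the libraries labelled anti-CTLA4, and 0.677 and 2.80 FPKM in the IgG libraries. Here the first CD4-depletion library lay between the 2 labelled anti-CTLA4. Col3a1 (chr1:45311538-45349706, plus strand) had 79.6, 17.1 and 5.96 FPKM in the CD4-depletion libraries, 63.6 and 31.3 FPKM in the libraries labelled anti-CTLA4, and 1.64 and 6.50 FPKM in the IgG libraries. Its highest value was in the first CD4-depletion library, and the third CD4-depletion library lay within the IgG range. These values rest on at least 336 implied reads per library for each of the 3 chains.

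The partner chains did not keep a fixed ratio. Col1a1 stood to Col1a2 as 5.85, 1.30 and 2.15 in the CD4-depletion libraries, 1.08 and 1.05 in the libraries labelled anti-CTLA4, and 0.314 and 1.87 in the IgG libraries. Thus the libraries labelled anti-CTLA4 were close to equal levels per length, while the first CD4-depletion library had far more Col1a1. Col3a1 stood to Col1a1 as 2.26, 2.33 and 1.97 in the CD4-depletion libraries, 1.40 and 1.38 in the libraries labelled anti-CTLA4, and 2.43 and 2.32 in the IgG libraries. This ratio was lower in both libraries labelled anti-CTLA4 than in any other.

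In the libraries labelled anti-CTLA4 against IgG, 9 of the 24 tested chains passed an adjusted p of 0.05 in limma's fit of log2(FPKM + 1), beside 38% of all 13028 tested genes. Because the family was taken up from this comparison, these counts describe it and test nothing. Of the chains 5 were higher (20.8%) and 4 lower (16.7%), beside 9.29% higher and 28.8% lower among all tested genes. The higher chains, with log2 fold changes on the log2(FPKM + 1) scale, were Col1a1 at 3.72 (SE 0.94), Col1a2 at 3.47 (SE 0.54), Col3a1 at 3.36 (SE 1.05), Col8a2 at 1.63 (SE 0.49) and Col15a1 at 1.31 (SE 0.24). The lower chains were Col11a1 at -2.40 (SE 0.29), Col16a1 at -1.38 (SE 0.31), Col26a1 at -1.32 (SE 0.42) and Col9a1 at -1.20 (SE 0.27). In both libraries labelled anti-CTLA4, 13 of the 24 chains lay above both IgG libraries, beside 22.8% of all genes, and 7 lay below both, beside 54.1% of all genes. The median log2 fold change was 0.66 over the tested chains and -0.31 over all tested genes. Scaled by median-of-ratios, which puts the median of all genes at 0.00, 9 chains were higher and 3 lower, beside 2167 and 2048 of 13009 genes, and Col26a1 did not pass. Scaled to the homeostatic microglia genes, with a median of all genes of -0.96, 4 chains were higher and 8 lower, beside 82 and 5221 of 13163 genes, and Col15a1 did not pass. The sign of each of the 9 chains was the same under both scalings. A fit that leaves 1 library in a group takes the spread from the other groups and assumes that the lone library varies like them. Without replicate 2 labelled anti-CTLA4, or without IgG replicate 1, the calls did not hold, for the chains as for all genes. Leaving out each library in turn, the log2 fold change ran from 3.01 to 3.94 for Col1a2 and from -2.63 to -2.17 for Col11a1. It ran from 0.915 to 2.35 for Col8a2 and from -1.72 to -0.918 for Col26a1. Fewer chains and fewer genes in all passed without replicate 1 labelled anti-CTLA4 or without IgG replicate 2. Without CD4-depletion replicate 1, 10 chains were higher and 5 lower, beside 1643 and 4432 of 12917 genes. Col3a1 did not pass without CD4-depletion replicate 2, nor did Col8a2 and Col26a1 without CD4-depletion replicate 3.

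**Figure D3:**
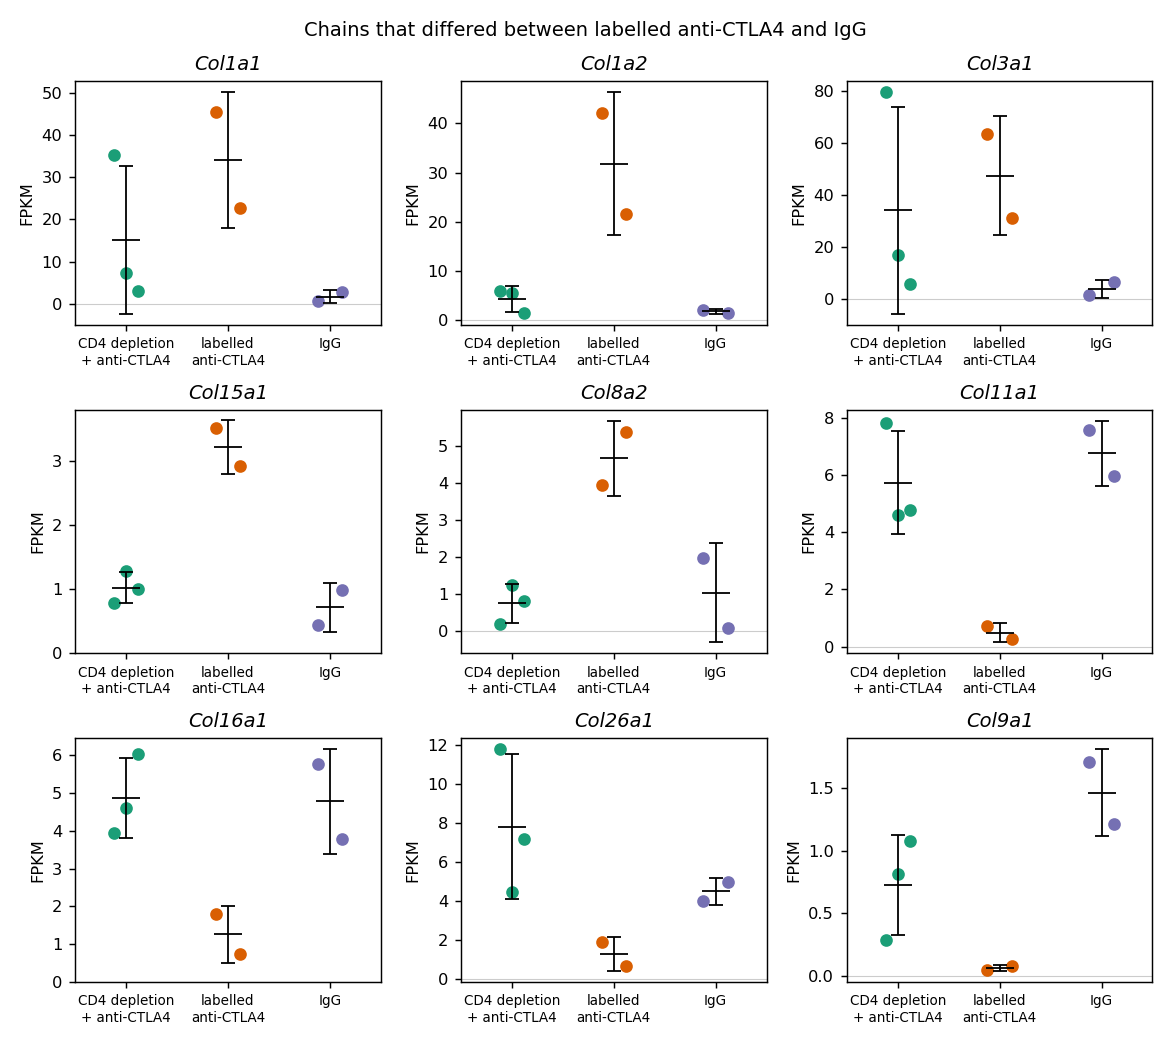
FPKM of the 9 chains past the threshold in the libraries labelled anti-CTLA4 against IgG, with a point per library, the wide line at the group mean and the error bar at the SD. In each panel the groups run CD4 depletion plus anti-CTLA4, labelled anti-CTLA4, IgG, and both libraries labelled anti-CTLA4 lie above the IgG libraries for Col1a2 and below them for Col11a1.

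The tested fibrillar chains differed from IgG in both directions. Col11a1 (chr3:114030540-114220756, plus strand), a minor fibrillar chain that sets fibril diameter in cartilage, had 7.84, 4.61 and 4.78 FPKM in the CD4-depletion libraries, 0.720 and 0.250 FPKM in the libraries labelled anti-CTLA4, and 7.58 and 5.97 FPKM in the IgG libraries. Both libraries labelled anti-CTLA4 lay far below the others, and still held 514 and 172 implied reads. Col5a1, whose product nucleates type I fibrils, had 8.36, 5.83 and 4.86 FPKM in the CD4-depletion libraries, 2.94 and 1.26 FPKM in the libraries labelled anti-CTLA4, and 5.22 and 3.45 FPKM in the IgG libraries. The libraries labelled anti-CTLA4 were again the lowest. Its partner Col5a2 went another way, with 9.52, 1.75 and 0.601 FPKM in the CD4-depletion libraries, 2.91 and 1.79 FPKM in the libraries labelled anti-CTLA4, and 0.428 and 0.545 FPKM in the IgG libraries. Col5a2 lies 24624 bases from Col3a1 on chromosome 1, with their 3′ ends facing, and the first CD4-depletion library was the highest for both. The ratio of Col5a1 to Col5a2 was 0.877, 3.32 and 8.08 in the CD4-depletion libraries, 1.01 and 0.702 in the libraries labelled anti-CTLA4, and 12.2 and 6.34 in the IgG libraries.

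Of the fibril-associated chains, which bind fibre surfaces, Col16a1 (chr4:130047840-130099277, plus strand) had 3.95, 4.604 and 6.04 FPKM in the CD4-depletion libraries, 1.78 and 0.724 FPKM in the libraries labelled anti-CTLA4, and 5.77 and 3.79 FPKM in the IgG libraries. Col9a1, a chain of collagen IX known from cartilage, had 0.291, 0.812 and 1.08 FPKM in the CD4-depletion libraries, 0.0490 and 0.0800 FPKM in the libraries labelled anti-CTLA4, and 1.71 and 1.22 FPKM in the IgG libraries. Both chains were lowest in the libraries labelled anti-CTLA4, and the 2 Col9a1 values there stood for 14 and 22 implied reads. Its partner Col9a3 had 3.00, 7.46 and 10.5 FPKM in the CD4-depletion libraries, 8.02 and 14.5 FPKM in the libraries labelled anti-CTLA4, and 4.76 and 3.29 FPKM in the IgG libraries. The ratio of Col9a3 to Col9a1 was 10.3, 9.18 and 9.74 in the CD4-depletion libraries, 164 and 181 in the libraries labelled anti-CTLA4, and 2.78 and 2.70 in the IgG libraries, so the 3 groups did not overlap. Col9a3 overlaps the end of Tcfl5 on the opposite strand and reads of both strands were counted. Tcfl5 was listed at no more than 0.282 FPKM, and its part in the Col9a3 values was not tested. Col26a1, a short collagen first described in testis and ovary, had 11.8, 4.43 and 7.19 FPKM in the CD4-depletion libraries, 1.89 and 0.664 FPKM in the libraries labelled anti-CTLA4, and 3.99 and 4.98 FPKM in the IgG libraries. It too was lowest in the libraries labelled anti-CTLA4.

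Collagen VIII is a network collagen of vessel walls and of the corneal basement membrane. Its chain Col8a2 had 0.198, 1.25 and 0.818 FPKM in the CD4-depletion libraries, 3.95 and 5.38 FPKM in the libraries labelled anti-CTLA4, and 1.98 and 0.0990 FPKM in the IgG libraries. The IgG libraries were far apart, at 724 and 36 implied reads. The other chain, Col8a1, had 10.6, 1.71 and 0.944 FPKM in the CD4-depletion libraries, 5.46 and 8.06 FPKM in the libraries labelled anti-CTLA4, and 1.56 and 0.510 FPKM in the IgG libraries. Col15a1, a multiplexin of vascular and other basement membrane zones, had 0.787, 1.28 and 0.999 FPKM in the CD4-depletion libraries, 3.51 and 2.91 FPKM in the libraries labelled anti-CTLA4, and 0.446 and 0.982 FPKM in the IgG libraries. For Col15a1 and Col8a2 the libraries labelled anti-CTLA4 stood above all 5 others. Col18a1, the other multiplexin and the precursor of endostatin, had 23.1, 23.2 and 31.4 FPKM in the CD4-depletion libraries, 21.2 and 7.76 FPKM in the libraries labelled anti-CTLA4, and 29.98 and 11.2 FPKM in the IgG libraries, and passed no test.

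Collagen IV of most vessels is built from Col4a1 and Col4a2, which start back to back on chromosome 8. Their transcripts overlap by 22 bases at the 5′ ends and their promoter windows share 78 bases. Col4a1 had 43.3, 19.2 and 18.5 FPKM in the CD4-depletion libraries, 32.8 and 14.9 FPKM in the libraries labelled anti-CTLA4, and 12.7 and 10.3 FPKM in the IgG libraries. Col4a2 had 26.2, 8.16 and 9.99 FPKM in the CD4-depletion libraries, 15.5 and 7.80 FPKM in the libraries labelled anti-CTLA4, and 3.46 and 3.01 FPKM in the IgG libraries. For both chains every library of either treated group lay above both IgG libraries. The ratio of Col4a1 to Col4a2 was 1.65, 2.36 and 1.85 in the CD4-depletion libraries, 2.12 and 1.92 in the libraries labelled anti-CTLA4, and 3.66 and 3.41 in the IgG libraries, the highest of the 7. Against IgG the log2 fold change of Col4a2 was 1.73 (SE 0.47) in the CD4-depletion libraries and 1.51 (SE 0.52) in the libraries labelled anti-CTLA4, and neither passed limma's adjusted threshold. Col4a5, which starts 1342 bases from Col4a6 on chromosome X and is best known from the filter of the kidney, had 3.96, 7.46 and 6.77 FPKM in the CD4-depletion libraries, 2.86 and 1.46 FPKM in the libraries labelled anti-CTLA4, and 5.74 and 3.65 FPKM in the IgG libraries. Unlike the pair on chromosome 8, Col4a5 was lowest in the libraries labelled anti-CTLA4. Col4a3, Col4a4 and Col4a6 stayed at or under 0.843 FPKM in every library.

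Collagen VI surrounds many cells, including fibroblasts, pericytes and macrophages, with beaded filaments. Col6a1 had 102, 8.77 and 12.3 FPKM in the CD4-depletion libraries, 11.7 and 4.59 FPKM in the libraries labelled anti-CTLA4, and 5.72 and 4.88 FPKM in the IgG libraries. Col6a2 had 74.9, 4.92 and 5.12 FPKM in the CD4-depletion libraries, 7.52 and 3.05 FPKM in the libraries labelled anti-CTLA4, and 3.38 and 3.38 FPKM in the IgG libraries. Col6a3, the largest of the main chains, had 6.99, 1.16 and 0.741 FPKM in the CD4-depletion libraries, 1.66 and 1.68 FPKM in the libraries labelled anti-CTLA4, and 0.231 and 0.621 FPKM in the IgG libraries. All 3 chains peaked in the first CD4-depletion library, and the group's means rest on it: Col6a1 averaged 41.1 ± 52.9 FPKM (SD, n = 3) there. Among the other tested chains, that library also led the 7 for Col3a1, Col4a1, Col4a2, Col5a1, Col5a2, Col5a3, Col8a1, Col11a1, Col23a1 and Col26a1. Its border-associated macrophage markers summed to 170 FPKM against 5.002 to 33.2 FPKM in the 6 others. Without F13a1, the highest of them, they summed to 83.3 FPKM against 4.745 to 29.8 FPKM. Its fibroblast marker sum of 64.0 FPKM lay within the 36.9 to 74.5 FPKM of its group. Pdgfra of the fibroblast list was highest of the 7 there, at 7.84 FPKM, while Dcn and Lum of that list were not. Of the mural list, Pdgfrb and Abcc9 were highest there, at 15.4 and 1.04 FPKM. Vtn, Rgs5, Acta2 and Myh11 were the lowest of the 7 there, at 0.996, 0.902, 3.36 and 0.0160 FPKM. The mural sum of 27.7 FPKM was the lowest of its group. The part of those cells in its collagen values was not tested.

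CD4 depletion plus anti-CTLA4 was set against anti-CTLA4 alone to ask what depleting CD4 T cells changes under the antibody. It uses the same 2 libraries labelled anti-CTLA4 as the comparison with IgG, so opposite signs in the 2 comparisons are in part the same measurement. In the CD4-depletion libraries 8 of the 24 tested chains passed, 33.3% beside 29.4% of all tested genes. Of these 5 rose, 20.8% beside 22.8% of all tested genes, and 3 fell, 12.5% beside 6.59%. Col11a1 rose by 2.17 (SE 0.26, adjusted p = 0.0114), Col26a1 by 1.92 (SE 0.38, adjusted p = 0.0165), Col16a1 by 1.41 (SE 0.28, adjusted p = 0.0164), Col5a1 by 1.27 (SE 0.31, adjusted p = 0.0263) and Col4a5 by 1.16 (SE 0.32, adjusted p = 0.0341), on the log2(FPKM + 1) scale with limma. For these 5 chains all 3 CD4-depletion libraries lay above both labelled anti-CTLA4. Col8a2 fell by 1.73 (SE 0.45, adjusted p = 0.0298). Col15a1 fell by 1.06 (SE 0.22) and is given without a p. Outside the libraries labelled anti-CTLA4 it reached 1 FPKM only in CD4-depletion replicate 2, at 1.28 FPKM. It thus entered the test through the group where it is high. Col1a2, Col1a1 and Col3a1 are described without a p, since their high values in the same 2 libraries prompted the choice of the family. Col1a2 fell by 2.69 (SE 0.50). For Col1a2, Col8a2 and Col15a1 all 3 CD4-depletion libraries lay below both labelled anti-CTLA4. Col1a1, at -1.64 (SE 0.86), and Col3a1, at -1.08 (SE 0.96), did not pass limma's threshold, with their first CD4-depletion library among the highest values. In all, 9 chains lay above and 3 below both libraries labelled anti-CTLA4, beside 44.7% and 15.7% of all genes. The median log2 fold change was 0.22 over the chains and 0.27 over all genes.

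Median-of-ratios scaling gave 3 chains higher and 4 lower in the CD4-depletion libraries, beside 1462 and 1685 of 13009 genes. Scaling to the homeostatic microglia genes gave 12 higher and 2 lower, beside 6110 and 97 of 13163 genes, and Col15a1 did not pass there. Col5a1 and Col4a5 did not pass under median-of-ratios scaling, under quantile normalization or without the filter on low values, and Col8a2 did not pass without that filter or with a pseudocount of 0.1. Without replicate 2 labelled anti-CTLA4 the calls did not hold, for the chains as for all genes. Without replicate 1 labelled anti-CTLA4, Col1a2, Col8a2 and Col15a1 did not pass. Limma called 1 chain higher and 1 lower without CD4-depletion replicate 3, beside 725 and 262 of 12921 genes. It called 3 and 2 without CD4-depletion replicate 2, beside 983 and 408 of 12923 genes. Without CD4-depletion replicate 1 it called 6 and 6, beside 4144 and 1162 of 12917 genes.

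**Figure D4:**
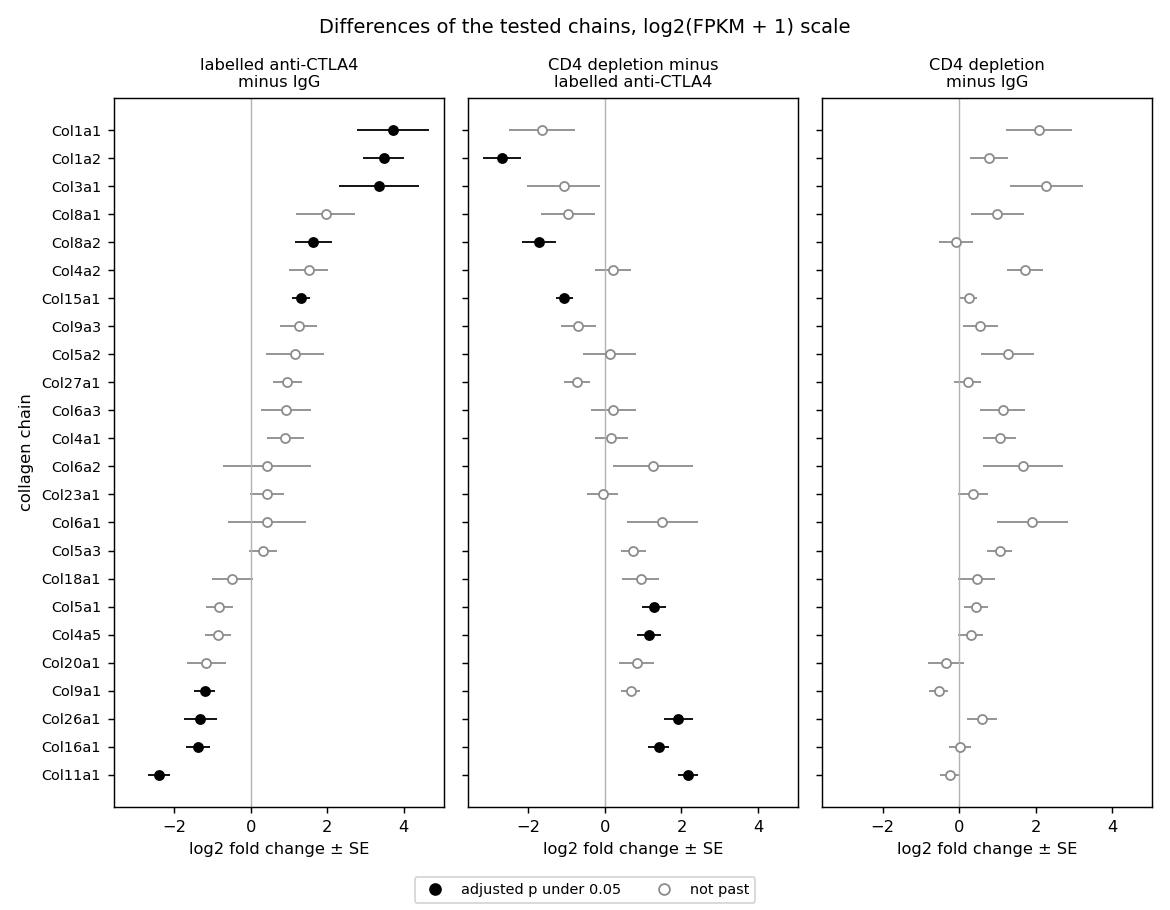
Log2 fold change on the log2(FPKM + 1) scale, with its standard error, of the 24 tested chains in the 3 comparisons, ordered by the first. Filled points passed the adjusted threshold of 0.05, with 9 chains in the first comparison, 8 in the second and 0 in the third.

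In the CD4-depletion libraries against IgG, limma called 0 of the 24 chains, and 0% of the 13028 tested genes, the smallest adjusted p being 0.315. At an unadjusted p under 0.05 there were 851 genes, 5 of them chains: Col4a1, Col4a2, Col1a1, Col5a3 and Col3a1, each with a positive fold change. All 3 CD4-depletion libraries lay above both IgG libraries for 8 chains, beside 11% of all genes, and below them for 1, beside 16.2%. The 8 were Col1a1, Col4a1, Col4a2, Col5a2, Col5a3, Col6a1, Col6a2 and Col6a3, and the 1 was Col9a1, named after their values were seen. The median log2 fold change was 0.58 over the chains and -0.04 over all genes. Without CD4-depletion replicate 1, limma again called 0 genes, with 3 of the 24 chains under an unadjusted p of 0.05, beside 692 of 12917 genes.

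The 20 chains under the level limit were not tested, and are described by their range. Just inside the limit lay Col9a1, Col5a3 and Col23a1, whose second-highest libraries held 1.22, 1.44 and 1.48 FPKM. Just outside lay Col11a2, Col13a1 and Col2a1, whose second-highest libraries held 0.981, 0.957 and 0.944 FPKM. Col13a1, a transmembrane collagen, had 0.222, 0.237 and 0.0440 FPKM in the CD4-depletion libraries, 2.89 and 0.957 FPKM in the libraries labelled anti-CTLA4, and 0.0240 and 0.340 FPKM in the IgG libraries. The cartilage chain Col2a1 had 0.944, 0.424 and 2.63 FPKM in the CD4-depletion libraries, 0.0570 and 0.0710 FPKM in the libraries labelled anti-CTLA4, and 0.592 and 0.853 FPKM in the IgG libraries. Col13a1 was thus highest and Col2a1 lowest in the libraries labelled anti-CTLA4. Col25a1, a transmembrane collagen of neurons, reached 3.43 FPKM in the first CD4-depletion library and at most 0.850 FPKM elsewhere. Col24a1 and Col28a1 were listed at 0 in both libraries labelled anti-CTLA4, and Col28a1 reached 1.69 FPKM in the first CD4-depletion library. Col6a5, Col6a6, Col10a1 and Col17a1 did not pass 0.217 FPKM in any library.

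Marker genes of other cells moved with these patterns. The 12 listed fibroblast genes, led by the matrix proteoglycan gene Dcn, summed to 64.0, 74.5 and 36.9 FPKM in the CD4-depletion libraries, 267 and 143 FPKM in the libraries labelled anti-CTLA4, and 41.1 and 46.7 FPKM in the IgG libraries. Of its 10 tested genes, 6 were higher and 2 lower in the libraries labelled anti-CTLA4 against IgG, and 5 were lower in the CD4-depletion libraries against those labelled anti-CTLA4. Over all tested genes, 9.29% were higher and 28.8% lower in the first of these comparisons, and 22.8% and 6.59% in the second. The same shares stand beside the counts of every marker list below. The 12 mural cell genes summed to 27.7, 29.1 and 30.5 FPKM in the CD4-depletion libraries, 120 and 68.9 FPKM in the libraries labelled anti-CTLA4, and 16.1 and 16.7 FPKM in the IgG libraries, with 4 of 10 tested genes higher in the first of those comparisons and 4 lower in the second. Most of the mural gap was Vtn, at 0.996, 11.8 and 7.14 FPKM in the CD4-depletion libraries, 87.3 and 39.4 FPKM in the libraries labelled anti-CTLA4, and 4.35 and 2.97 FPKM in the IgG libraries. The 11 other mural genes summed to 26.7, 17.3 and 23.3 FPKM in the CD4-depletion libraries, 32.3 and 29.4 FPKM in the libraries labelled anti-CTLA4, and 11.8 and 13.7 FPKM in the IgG libraries. The 13 endothelial genes summed to 30.5, 45.5 and 55.04 FPKM in the CD4-depletion libraries, 62.6 and 64.3 FPKM in the libraries labelled anti-CTLA4, and 23.8 and 25.1 FPKM in the IgG libraries, with 6 of 11 higher and 2 of 11 lower in the same comparisons. Among the defining genes Dpt, a fibroblast gene, and Des, a mural gene, were at 0 in a library. The mural gene Myh11 reached 1 FPKM only in the libraries labelled anti-CTLA4, at 1.21 and 2.27 FPKM. Outside them, Slc6a13, Ogn and Tek each reached 1 FPKM in only 1 CD4-depletion library, at 1.04, 1.55 and 1.60 FPKM. These genes entered the tests through the libraries labelled anti-CTLA4, so the counts of the fibroblast, mural and endothelial lists are a description. The 3 list sums were highest in the libraries where Col1a2 and Col15a1 were highest, and the part of these cells in the collagen values was not tested.

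The reverse pattern was that of oligodendrocyte precursor-like and tumour cell genes. The 14 listed genes, led by Olig1, summed to 180, 650 and 461 FPKM in the CD4-depletion libraries, 99.7 and 38.5 FPKM in the libraries labelled anti-CTLA4, and 747 and 1065 FPKM in the IgG libraries. All 14 were lower in the libraries labelled anti-CTLA4 against IgG, and 12 were higher in the CD4-depletion libraries against those labelled anti-CTLA4. Col11a1 and Col16a1 were lowest in the same 2 libraries, where 54.1% of all tested genes lay below both IgG libraries. The highest Col11a1 value, 7.84 FPKM, was in the first CD4-depletion library, where the 14 genes summed to 180 FPKM. Astrocyte genes summed to 182, 229 and 305 FPKM in the CD4-depletion libraries, 113 and 74.9 FPKM in the libraries labelled anti-CTLA4, and 203 and 273 FPKM in the IgG libraries, with 3 of 9 lower and 2 of 9 higher in those comparisons. The astrocyte counts lie near the shares over all tested genes, 28.8% lower in the first comparison and 22.8% higher in the second. The part of tumour or glial RNA in the chain values was not tested.

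Choroid plexus genes summed to 35.1, 295 and 288 FPKM in the CD4-depletion libraries, 793 and 1408 FPKM in the libraries labelled anti-CTLA4, and 501 and 30.6 FPKM in the IgG libraries, with 1 of 7 tested genes higher and 2 lower in the same comparisons. Ordered by this sum, the 7 libraries stood exactly as when ordered by Col8a2, the only such match among 240 pairs of 24 chains and 10 marker lists. The sum was mostly Ttr, the transthyretin gene. Without Ttr the 6 other genes summed to 2.34, 14.7 and 11.1 FPKM in the CD4-depletion libraries, 41.1 and 77.1 FPKM in the libraries labelled anti-CTLA4, and 32.1 and 3.26 FPKM in the IgG libraries, and the exact match was lost, since the lowest library was then CD4-depletion replicate 1 and not IgG replicate 2. Erythroid genes summed to 251, 876 and 329 FPKM in the CD4-depletion libraries, 1543 and 1437 FPKM in the libraries labelled anti-CTLA4, and 500 and 73.4 FPKM in the IgG libraries, with 6 of 7 higher and 0 lower. The homeostatic microglia genes had 3 of 14 higher and 3 of 14 lower in the same comparisons, the monocyte genes 1 of 7 lower and 1 of 7 higher, and the border-associated macrophage genes 0 of 6 in either.

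**Figure D5:**
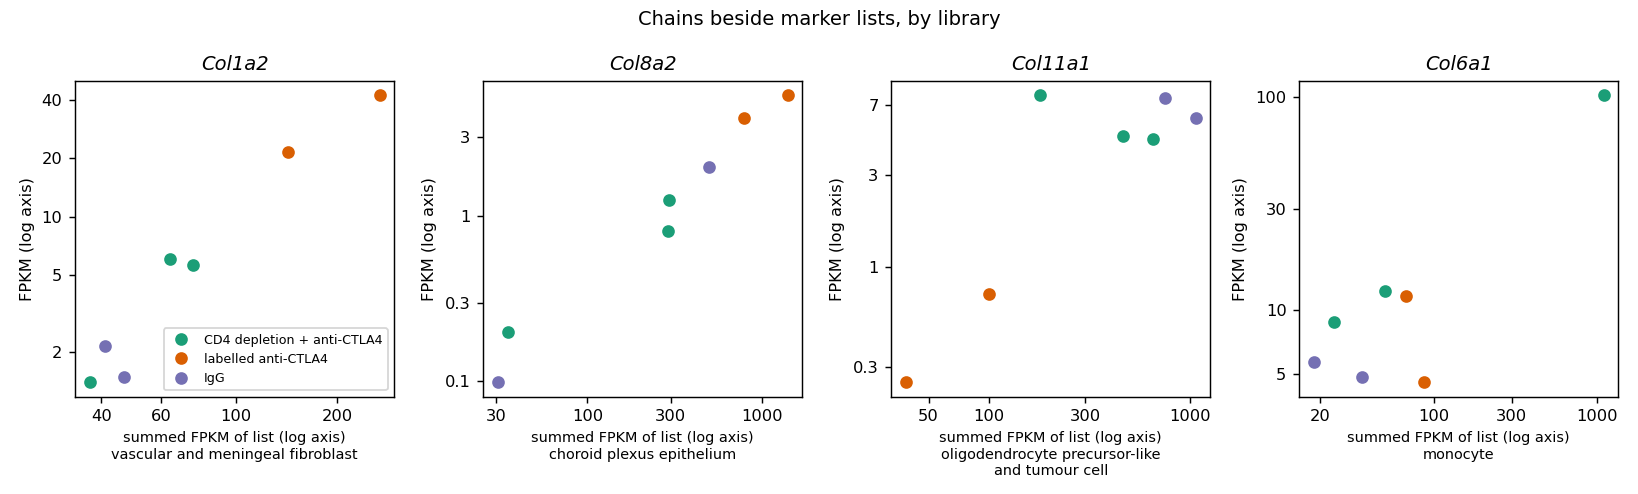
FPKM of Col1a2, Col8a2, Col11a1 and Col6a1 (vertical log axes) against the summed FPKM of fibroblast, choroid plexus, oligodendrocyte precursor-like and tumour, and monocyte marker genes (horizontal log axes), with a point per library coloured by group. Col1a2 and its marker sum are highest in the 2 libraries labelled anti-CTLA4, Col11a1 is lowest there, and the first CD4-depletion library stands alone in the Col6a1 panel.

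Collagen needs dedicated enzymes and chaperones in the endoplasmic reticulum and proteases that trim its ends. Of 24 tested genes for synthesis and processing, 1 was higher and 8 lower in the libraries labelled anti-CTLA4 against IgG, beside 9.29% and 28.8% of all tested genes. The list's median log2 fold change was -0.41, against -0.31 over all genes. In the CD4-depletion libraries against those labelled anti-CTLA4, 7 were higher and 0 lower, beside 22.8% and 6.59% of all genes, with medians of 0.71 and 0.27. These background shares apply to the other lists as well, and the lower calls in the first comparison and the higher ones in the second lie near them for this list. Fkbp10, a prolyl isomerase chaperone of procollagen, had 41.2, 33.3 and 29.8 FPKM in the CD4-depletion libraries, 11.7 and 4.84 FPKM in the libraries labelled anti-CTLA4, and 29.3 and 24.7 FPKM in the IgG libraries. Bmp1, the procollagen C-proteinase, had 43.7, 34.9 and 51.2 FPKM in the CD4-depletion libraries, 12.7 and 6.27 FPKM in the libraries labelled anti-CTLA4, and 37.0 and 24.8 FPKM in the IgG libraries. Both were lowest in the libraries labelled anti-CTLA4. Against the libraries labelled anti-CTLA4, limma put Bmp1 in the CD4-depletion libraries at 2.13 (SE 0.31, adjusted p = 0.012) and Fkbp10 at 2.04 (SE 0.32, adjusted p = 0.012). Plod1, a lysyl hydroxylase, was the gene higher in the libraries labelled anti-CTLA4 against IgG, at 0.77 (SE 0.15, adjusted p = 0.012 with limma). Serpinh1, the collagen chaperone HSP47, had 131, 38.1 and 66.0 FPKM in the CD4-depletion libraries, 47.8 and 23.8 FPKM in the libraries labelled anti-CTLA4, and 13.7 and 12.7 FPKM in the IgG libraries, and did not pass.

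Of 4 tested cross-linking genes, Loxl1, a lysyl oxidase relative, was called higher in the libraries labelled anti-CTLA4 against IgG, at 0.87 (SE 0.22). No p is given for it. Outside the libraries labelled anti-CTLA4 it reached 1 FPKM only in CD4-depletion replicate 3, at 1.11 FPKM. It thus entered the test through the group where it is high. Pxdn, the peroxidase that cross-links collagen IV, had 10.3, 6.62 and 6.46 FPKM in the CD4-depletion libraries against 2.37 and 0.963 FPKM in the libraries labelled anti-CTLA4, a rise of 1.75 (SE 0.29, adjusted p = 0.013 with limma). Of 9 tested basement membrane partners of collagen IV, 1 was higher and 4 lower in the libraries labelled anti-CTLA4 against IgG, and 4 were higher and 1 lower in the CD4-depletion libraries against those labelled anti-CTLA4. The laminin chain gene Lamc3 was the 1 apart, with 0.0690, 0.278 and 0.278 FPKM in the CD4-depletion libraries, 3.38 and 1.57 FPKM in the libraries labelled anti-CTLA4, and 0.0440 and 0.209 FPKM in the IgG libraries. Lamc3 reached 1 FPKM only in the libraries labelled anti-CTLA4, so it entered the tests through them. The laminin genes Lama4, Lama5, Lamb1 and Lamc1 were the 4 that moved the other way in both comparisons. Col4a1 and Col4a2 had positive fold changes against IgG in both treated groups and passed in neither.

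Collagen receptors include integrins, discoidin domain receptors and LAIR1, an inhibitory receptor of immune cells that binds collagen. Lair1 had 44.2, 51.4 and 52.3 FPKM in the CD4-depletion libraries, 105 and 136 FPKM in the libraries labelled anti-CTLA4, and 52.4 and 55.3 FPKM in the IgG libraries. Both libraries labelled anti-CTLA4 lay above the rest, with a log2 fold change against IgG of 1.13 (SE 0.18, adjusted p = 0.010 with limma), and of -1.26 (SE 0.17, adjusted p = 0.011 with limma) for CD4 depletion against them. Of the 6 other tested receptors, 5 were lower in the libraries labelled anti-CTLA4 against IgG and higher in the CD4-depletion libraries against them: Ddr1, Ddr2, Itga1, Itgb1 and the endocytic receptor gene Mrc2. Ddr1 had 11.2, 27.9 and 17.5 FPKM in the CD4-depletion libraries, 8.56 and 6.52 FPKM in the libraries labelled anti-CTLA4, and 35.0 and 33.4 FPKM in the IgG libraries. Of 5 tested turnover genes none passed in the libraries labelled anti-CTLA4 against IgG, and 1, the gelatinase gene Mmp9, was higher in the CD4-depletion libraries against them, at 2.20 (SE 0.62, adjusted p = 0.037 with limma). In the CD4-depletion libraries against IgG, 0 genes of any of these lists passed limma's threshold, as for all genes.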

How the data were processed

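Sorted microglia of 7 libraries were profiled by RNA sequencing, with libraries made by an ultra-low-input method, per the labels' protocols. STAR, HOMER, DESeq2 and the mouse build mm10 are named in the submitters' processing notes, without versions. The deposited values are in FPKM and, per the file headers, came from HOMER's counting over exons on both strands, with 1 entry per gene. The header's command lists 40 libraries, and 33 have no column here. Gene positions are given as deposited, in mm10.

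Each value was taken to log2(FPKM + 1) and tested in limma 3.58.1 (R 4.3.3), with a variance trend, all 7 libraries in 1 fit and Benjamini-Hochberg adjustment over the 13028 genes at 1 FPKM or more in at least 2 libraries; the threshold was 0.05, two-sided, over 3 comparisons. Fold changes on this scale understate those of low genes. The labels do not say that replicates were separate animals, so p-values measure the spread between these libraries only.

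The chains, marker lists and tests were chosen with earlier results of these data known. Values in every library are given for the 12 chains of highest mean and for up to 5 chains per comparison and direction past the threshold, with up to 4 genes per list; a few others that set off a partner were added after their values were seen.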

Additional observations from a re-analysis of the deposited data

How the results depend on the processing

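Leaving out each CD4-depletion library in turn gave 4 to 10 chains higher and 3 to 5 lower in the libraries labelled anti-CTLA4 against IgG. All tested genes gave 967 to 1643 higher and 3192 to 4432 lower. In the CD4-depletion libraries against those labelled anti-CTLA4 it gave 1 to 6 chains higher and 1 to 6 lower. All tested genes gave 725 to 4144 and 262 to 1162. A group cut to 1 library borrows its spread from the others, and some or all of its calls were then lost. Without the filter on low values, 3 chains were higher in the first comparison and 3 in the second, beside 991 and 1861 of 19667 genes. Median-of-ratios scaling gave 9 and 3, beside 2167 and 1462 of 13009 genes. Quantile normalization gave 8 and 3, beside 1928 and 1452 of 13028 genes. Scaling to homeostatic microglia genes gave 8 lower in the first and 12 higher in the second, beside 5221 and 6110 of 13163 genes. A fit of only the 2 groups compared gave 10 higher in the first, beside 1416 of 12550 genes. The cause was not tested.

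Deviations of same-numbered libraries from their group means had correlations of -0.205 to 0.123. In a group of 2 libraries the deviations mirror each other, so this check cannot tell whether replicate numbers pair the samples. With the replicate number as a block, limma called 0 chains and 0 genes in all in the CD4-depletion libraries against those labelled anti-CTLA4. Under an unadjusted p of 0.05 in that fit lay 12 of the 24 chains, beside 4304 of 13028 genes. In the libraries labelled anti-CTLA4 against IgG, the block gave 5 higher and 3 lower, beside 597 and 2068 of 13028 genes.

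Over all genes, the calls in the libraries labelled anti-CTLA4 against IgG were 1210 higher and 3747 lower, and 2167 and 2048 after median-of-ratios scaling. For single chains, 193 of the alternative values stayed past the threshold, 78 did not, and 0 changed sign. Several settings leave a chain's fold change as it was, so they could not change its sign. These are the changes of filter or variance trend, the fit of only the 2 groups compared, and leaving out a library of the third group. Alternatives were run for 4 shares and ratios only, and leaving out a library of 2 or 3 cannot move a mean by more than the SD, so these say little on stability. The fibrillar share in the libraries labelled anti-CTLA4 was 24.01 to 34.6 percentage points above IgG. That share rests largely on Col1a1, Col1a2 and Col3a1, whose values prompted the choice of the family. Differences that took both signs were the Col1a1 to Col1a2 ratio of the libraries labelled anti-CTLA4 minus IgG (-0.801 to 0.753), the Col4a1 to Col4a2 ratio of the CD4-depletion libraries minus those labelled anti-CTLA4 (-0.267 to 0.0852), and, for the CD4-depletion libraries minus IgG, the fibrillar share (-2.42 to 8.13) and the collagen IV share (-1.42 to 3.17). Depth limits only the lowest chains, such as Col9a1 at 14 implied reads in a library labelled anti-CTLA4.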
